A study of Mus musculus with 11 samples.

Results

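The MKS module is a group of proteins of the ciliary transition zone. Of its genes, 10 were examined here: Tctn1, Tctn2, Tctn3, Tmem231, Tmem67, Rpgrip1l, Cc2d2a, B9d1, B9d2 and Mks1. They were chosen by name, as the rows of the count table whose Ensembl identifier carries one of these symbols in the GENCODE M21 annotation. All 10 were found among the 23074 genes of the table and all 10 passed the filter on low counts that left 15745 genes for testing. RNA-Seq was performed on decapsulated testes of mice at postnatal day 21 (P21), 5 WT (Rfx2+/+, replicates 1 to 5) and 6 Rfx2-/- (replicates 6 to 11). The labels give all mice of both genotypes a mixed C57BL/6, 129/Sv and FVB/N background, and per the methods littermates were used where this was possible. In the Rfx2-/- mice exon 7 of Rfx2, which encodes most of the DNA binding domain, had been flanked by loxP sites and excised with a ubiquitously expressed ACTB-cre, and the methods describe the mixed background line as keeping the neo selection cassette. The labels number the mice but do not give their litters.

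The transition zone is the short segment between the basal body and the shaft of a cilium or flagellum, where Y-shaped links join the microtubule doublets to the membrane and limit which proteins pass. The MKS module lies at this membrane. Its tectonic proteins and its transmembrane proteins Tmem231 and Tmem67 sit in or on the membrane, the B9 domain proteins B9d1, B9d2 and Mks1 lie beneath it, and Cc2d2a and Rpgrip1l are scaffold proteins with coiled coils. Mutations of these genes in humans cause Meckel and Joubert syndromes. RFX2 is a transcription factor that binds X boxes, imperfect inverted repeats found at the promoters of many ciliary genes. In the mouse testis the protein is found in pachytene spermatocytes and early round spermatids, and early round spermatids are the most advanced cells at P21.

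RFX proteins bind DNA directly, so the promoter sequences of the members are shown before their values. RefSeq promoter windows of GRCm38.p6, running from 250 bases before to 50 bases after a transcription start, were found for 9 of the 10 members (10 windows, of which 2 belong to B9d2). Tmem67 had no window. A pair of patterns was searched on both strands. The first was the single arm GTTGCC, and the other was a paired site, GTNNCC followed by 0 to 3 bases and then by NGNNAC. The patterns can overlap, since a paired site may begin with the single arm. A paired site was present in 6 members, against 13.4% of the 32851 promoter windows in the table, and the single arm was present in 7 members, against 12.5% of those windows. The 7 paired sites of these 6 members are printed 5′ to 3′ on the strand of the gene, in capitals, with up to 8 flanking bases in lower case:
Tctn1: ctgtgactGTTGCCCGGGCAAC
Tctn2: gattggagGTTACCATGGCTACtggtcctc
Tctn3: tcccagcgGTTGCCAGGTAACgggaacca
Tctn3: cctgggacGTATCTGGAGACcc
Tmem231: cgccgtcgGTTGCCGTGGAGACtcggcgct
B9d2: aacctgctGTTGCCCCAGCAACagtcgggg
Mks1: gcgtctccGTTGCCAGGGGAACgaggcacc

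The Tctn1 site lies at bases 37 to 50 after the start, at the very end of its window, and reads the same on both strands. The Tctn2 site begins 62 bases before the start, the first Tctn3 site 140 bases before it and the Mks1 site 24 bases before it. The second Tctn3 site, the B9d2 site and the Tmem231 site begin at bases 37, 17 and 12 after the start. The B9d1 window held the single arm on the opposite strand, at base 21 after the start, and no paired site. The windows of Rpgrip1l and Cc2d2a held neither pattern. These matches describe letters in a window, and RFX2 binding (ChIP-Seq was part of the study) was not analysed here. The authors name Rpgrip1l, B9d1, B9d2, Tctn1, Tctn2, Tctn3, Mks1 and Tmem231 among the transition zone genes that RFX2 binds in the testis. A window without a pattern therefore does not show that RFX2 is absent from a gene.

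The 250 bases before the start are printed for the 3 members whose RNA differed between the genotypes at an adjusted p of at most 0.01, so that they can be set beside each other. They lie on the minus strand of GRCm38, at chr5:122264461-122264710 for Tctn1, chr8:91313223-91313472 for Rpgrip1l and chr8:111933814-111934063 for Tmem231, and capitals mark the single arm:
Tctn1: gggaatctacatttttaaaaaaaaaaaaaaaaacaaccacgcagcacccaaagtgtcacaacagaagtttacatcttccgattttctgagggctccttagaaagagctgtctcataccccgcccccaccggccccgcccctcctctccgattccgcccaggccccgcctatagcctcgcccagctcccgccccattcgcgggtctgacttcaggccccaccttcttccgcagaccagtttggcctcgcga
Rpgrip1l: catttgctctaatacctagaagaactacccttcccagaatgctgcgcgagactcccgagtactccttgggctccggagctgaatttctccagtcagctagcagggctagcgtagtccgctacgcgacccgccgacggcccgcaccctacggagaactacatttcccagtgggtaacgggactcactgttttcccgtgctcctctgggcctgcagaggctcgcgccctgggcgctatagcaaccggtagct
Tmem231: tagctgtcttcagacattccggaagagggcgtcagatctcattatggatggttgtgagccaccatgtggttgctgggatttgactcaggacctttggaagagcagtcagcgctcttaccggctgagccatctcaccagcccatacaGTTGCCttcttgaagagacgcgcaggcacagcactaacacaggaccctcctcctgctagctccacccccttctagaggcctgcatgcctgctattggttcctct
Before the start, the single arm occurs in the Tmem231 sequence, 104 bases upstream, and in neither of the others.

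RNA levels are given as CPM, counts per 1000000 of the library size after TMM scaling, and genotypes were compared with edgeR, by its quasi-likelihood test, with p-values adjusted over all tested genes by the method of Benjamini and Hochberg. Total counts lay between 26925157 and 29769483 in WT and between 22232097 and 27116903 in Rfx2-/- mice. A count of 3 corresponds to 0.0852 to 0.139 CPM in these libraries, so that every member lay far above this floor in every mouse, with counts from 106 for Cc2d2a to 4214 for Tctn2. Counting Rfx2 over all its exons gave 326 ± 118 CPM (SD, n = 5) in WT and 304 ± 14.6 CPM (SD, n = 6) in Rfx2-/- testis (edgeR adjusted p = 0.714). These counts do not show whether exon 7 is covered and therefore do not check the genotype labels.

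Members of the MKS module were not changed in 1 direction in Rfx2-/- testis. Tctn1 and Rpgrip1l were upregulated, by 2.06-fold and 1.58-fold, and Tmem231 was downregulated, to 65.2% of its WT level. The other 7 members did not pass the adjusted p of 0.01. Of all tested genes, 1.94% were called lower and 0.730% were called higher at this threshold. At an adjusted p of at most 0.05, 3 members were lower (Tmem231, Cc2d2a and B9d2) and 3 were higher (Tctn1, Rpgrip1l and Tctn3), where 8.78% of all tested genes were lower and 6.15% were higher. The median log2 fold change of the 10 members was -0.02, beside -0.05 for all tested genes, with 6 members below and 4 above 0. In whole testis, fewer cells of a type and less RNA per cell cannot be told apart. Nothing in the labels ties a mouse to a batch, and the p-values measure the spread between these mice.

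**Figure D1:**
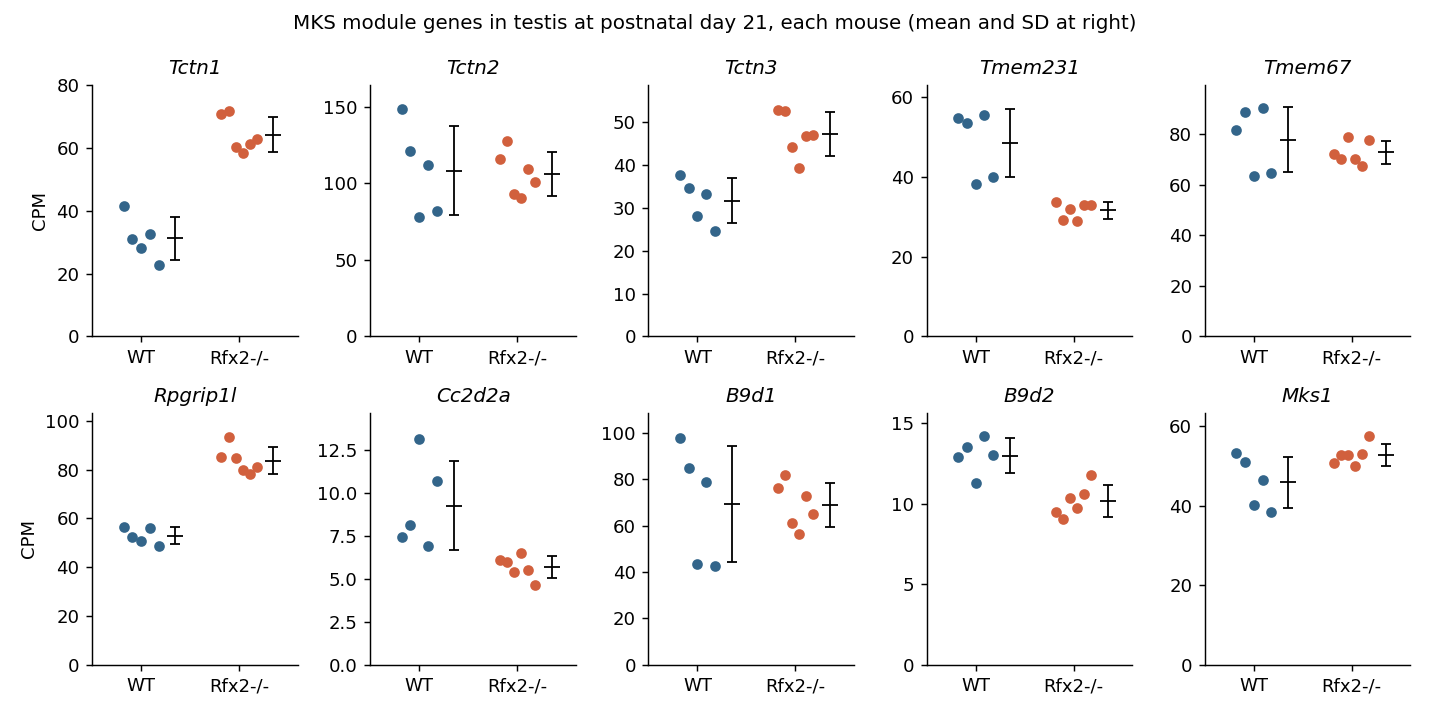
Each panel plots the CPM of a member (linear y axis from 0) in the 5 WT and 6 Rfx2-/- mice in the order of their replicate numbers, with the mean and SD at the right of each group. Rfx2-/- mice lie above all WT mice for Tctn1, Tctn3 and Rpgrip1l and below them for Tmem231 and Cc2d2a, and WT replicates 3 and 5 lie below the other WT mice in 8 panels.

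The tectonics are a family of 3 related proteins with a signal peptide, of which Tctn2 and Tctn3 also have a membrane anchor. Tctn1 (ENSMUSG00000038593, chromosome 5 from 122237848 to 122264460, minus strand of GRCm38) had 41.6, 31.0, 28.1, 32.7 and 22.8 CPM in WT replicates 1 to 5. In Rfx2-/- replicates 6 to 11 it had 70.8, 71.7, 60.5, 58.6, 61.3 and 63.0 CPM. The lowest Rfx2-/- mouse was above the highest WT mouse. The means were 31.2 ± 6.88 CPM (SD, n = 5) and 64.3 ± 5.57 CPM (SD, n = 6), a log2 fold change of 1.04 with a standard error of 0.13 (edgeR adjusted p = 0.000933). The 95% interval of the fold change ran from 1.68 to 2.52. Tctn1 passed the threshold in all 21 alternatives, with log2 fold changes from 0.74 to 1.17.

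Tctn3 (ENSMUSG00000025008, chromosome 19 from 40596446 to 40612233, minus strand) had 37.7, 34.7, 28.2, 33.2 and 24.6 CPM in the 5 WT mice and 53.0, 52.7, 44.3, 39.3, 46.8 and 47.0 CPM in the 6 Rfx2-/- mice. Again every Rfx2-/- mouse was above every WT mouse, but Rfx2-/- replicate 9 was close to WT replicate 1. The log2 fold change was 0.57 with a standard error of 0.12 (edgeR adjusted p = 0.0150), past 0.05 and not past 0.01. Tctn3 passed 0.01 in 5 alternatives, with an adjusted p of 0.00820 without WT replicate 1, 0.00885 with total counts as library sizes and 0.00149 with a round spermatid score as covariate in edgeR, 9.72e-05 in DESeq2 and 0.00437 in limma voom. Its adjusted p stayed between 0.0135 and 0.0412 in edgeR when any other mouse was left out.

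Tctn2 (ENSMUSG00000029386, chromosome 5 from 124598749 to 124627738, plus strand) was the most abundant member by counts and differed little on average, with 108 ± 29.2 CPM (SD, n = 5) in WT and 106 ± 14.2 CPM (SD, n = 6) in Rfx2-/- testis. Values ranged from 78.1 to 148 CPM in WT and from 90.5 to 128 CPM in Rfx2-/- mice, so that the Rfx2-/- mice lay inside the WT range. The log2 fold change was -0.03 with a 95% interval from -0.39 to 0.33 (edgeR adjusted p = 0.901). This interval leaves room for a fall or a rise of this size.

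The 3 tectonics were compared with each other by their ratios within a mouse, which do not depend on library size. For each pair, log2 ratios were compared between genotypes with a two-sided exact permutation test over all assignments of the genotype labels to the 11 mice, and p-values were adjusted over 6 pairs of related members. The smallest p this test can give is 0.00433. The count of Tctn1 relative to Tctn2 was 0.280, 0.256, 0.360, 0.292 and 0.279 in WT replicates 1 to 5. In Rfx2-/- replicates 6 to 11 it was 0.613, 0.561, 0.651, 0.647, 0.562 and 0.623, a difference of 1.06 on the log2 scale (exact p = 0.00433, adjusted p = 0.00649). Tctn1 also rose relative to Tctn3, from ratios of 0.893 to 1.10 in WT to 1.31 to 1.49 in Rfx2-/- mice, a log2 difference of 0.48. Tctn2 fell relative to Tctn3, from 2.77 to 3.94 in WT to 2.10 to 2.42 in Rfx2-/- mice, a log2 difference of -0.58. Both had the same exact p of 0.00433 and adjusted p of 0.00649, and in all 3 pairs the genotypes did not overlap. The RNA of the 3 tectonics therefore differed between the genotypes to unlike degrees, in the order Tctn1, Tctn3, Tctn2. Such ratios do not remove differences in cell types between mice, whose part was not tested.

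**Figure D2:**
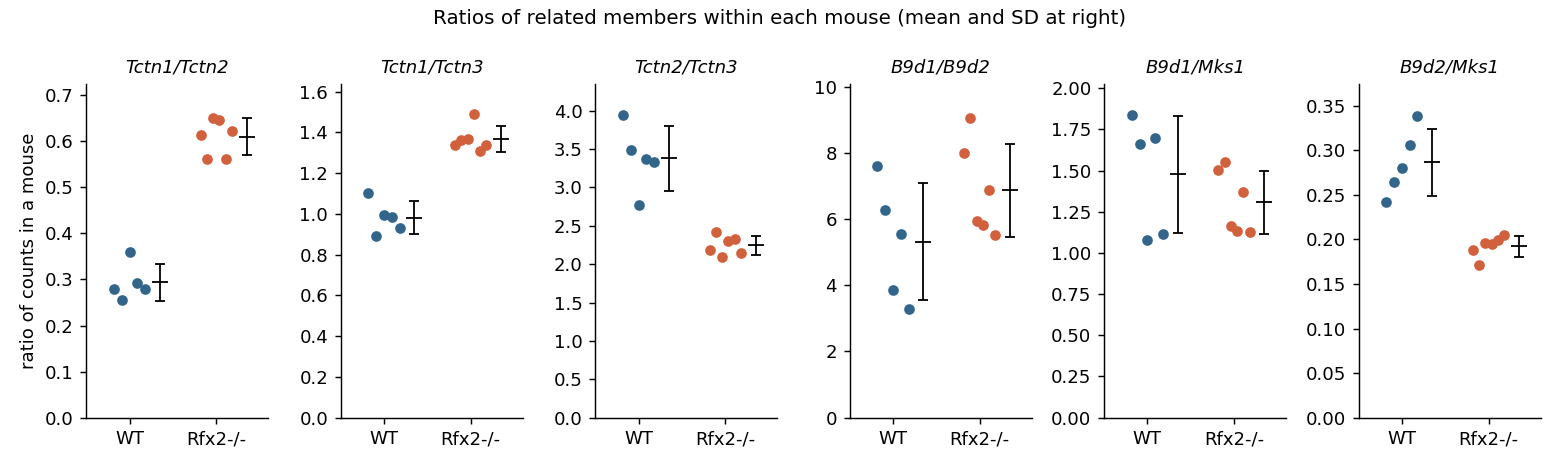
Each panel plots the ratio of the counts of 2 related members within a mouse (linear y axis from 0, no unit) for the 5 WT and 6 Rfx2-/- mice, with the mean and SD at the right of each group. The genotypes separate completely for the 3 tectonic pairs and for B9d2/Mks1 and overlap for B9d1/B9d2 and B9d1/Mks1.

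Tctn1 shares its end with another gene. Hvcn1, which encodes a voltage-gated proton channel, lies on the opposite strand, and in GENCODE M21 the 3′ ends of the pair overlap. Of the 5717 nt of merged Tctn1 exons in that annotation, 1574 (27.5%) are also Hvcn1 exon. The library kit does not mark strand, and reads falling on exons of more than 1 gene were not counted by the authors. In these libraries Hvcn1 rose with Tctn1. It had 32.2, 27.9, 24.3, 26.9 and 20.7 CPM in the WT mice and 53.8, 54.5, 58.3, 48.9, 49.9 and 51.7 CPM in the Rfx2-/- mice (95% interval of the fold change 1.71 to 2.34, edgeR adjusted p = 0.000247). A pseudogene on the opposite strand, Gm15481, which is not among the counted genes, shares 539 nt with Tctn1 exons. Outside Hvcn1 exons lie 4143 nt of Tctn1 exons. The part of the overlap in the Tctn1 result was not tested.

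**Figure D3:**
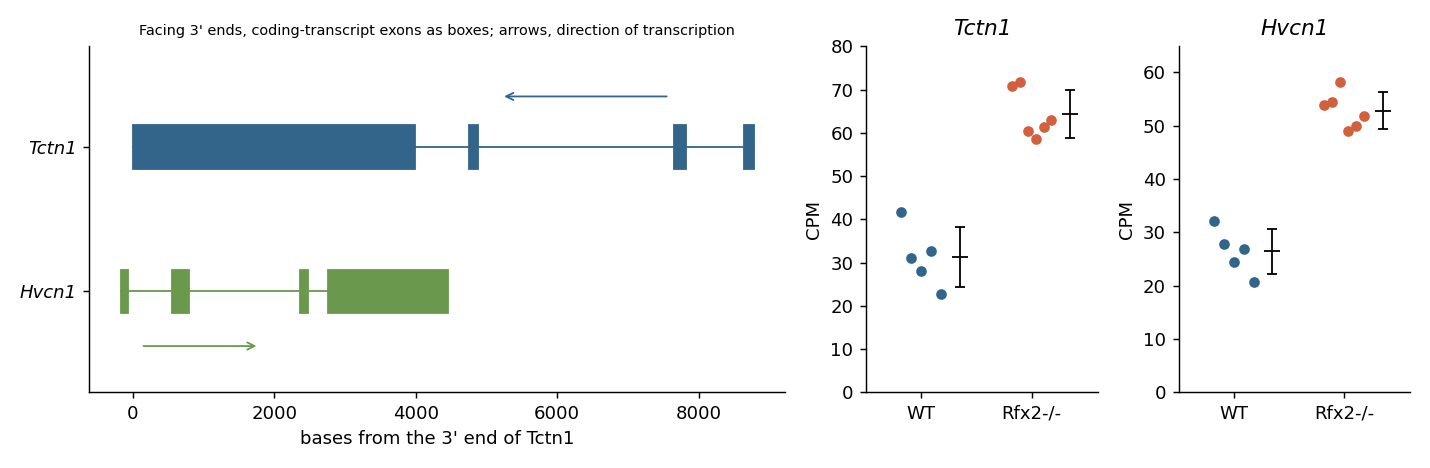
The left panel draws the last exons of Tctn1 and Hvcn1 as boxes, to scale, against the distance in bases from the 3′ end of Tctn1, with arrows for the direction of transcription. The other panels plot the CPM of each gene per mouse with the mean and SD (linear axes from 0), and in both the lowest Rfx2-/- mouse is above the highest WT mouse.

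Tmem231, a transmembrane protein needed for the module to assemble at the ciliary membrane, was the member called lower. Tmem231 (ENSMUSG00000031951, chromosome 8 from 111912011 to 111933881, minus strand) had 54.9, 53.6, 38.3, 55.6 and 40.0 CPM in WT replicates 1 to 5. In Rfx2-/- replicates 6 to 11 it had 33.6, 29.1, 32.04, 29.0, 32.9 and 33.0 CPM. The highest Rfx2-/- mouse was below WT replicate 3, the lowest WT mouse. The means were 48.5 ± 8.58 CPM (SD, n = 5) and 31.6 ± 2.04 CPM (SD, n = 6), a log2 fold change of -0.62 with a standard error of 0.11 (edgeR adjusted p = 0.00767), and the 95% interval ran from 0.551 to 0.772 times the WT level. The call did not survive the loss of most single mice. It held without WT replicate 3 (edgeR adjusted p = 0.00299) or 5 (0.00567) and was lost without any of the other 9 mice, with adjusted p between 0.0115 (without WT replicate 1) and 0.0237 (without WT replicate 2). The log2 fold change stayed between -0.68 and -0.56 in these fits.

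Tmem67, or meckelin, a receptor-like protein with a large extracellular domain (ENSMUSG00000049488, chromosome 4 from 12039355 to 12090020, minus strand), had 63.7 to 90.4 CPM in WT and 67.3 to 79.0 CPM in Rfx2-/- mice. Means of 77.9 ± 12.9 CPM (SD, n = 5) and 72.8 ± 4.55 CPM (SD, n = 6) gave a log2 fold change of -0.10 with a 95% interval from -0.32 to 0.12 (edgeR adjusted p = 0.466). Its exons share 289 nt with Rbm12b2 on the opposite strand, for which the log2 fold change was 0.05 (edgeR adjusted p = 0.830).

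Of the scaffold proteins, Rpgrip1l rose and Cc2d2a was lower at the looser threshold. Rpgrip1l (ENSMUSG00000033282, chromosome 8 from 91217030 to 91313262, minus strand), which anchors other transition zone proteins at the base of the cilium, had 56.7, 52.2, 50.9, 56.2 and 48.5 CPM in WT mice. The Rfx2-/- mice had 85.1, 93.3, 84.7, 80.0, 78.3 and 81.1 CPM. The genotypes were far apart compared with their own spread, with a highest to lowest ratio of 1.17 in WT and 1.19 in Rfx2-/- mice. The means were 52.9 ± 3.50 CPM (SD, n = 5) and 83.8 ± 5.40 CPM (SD, n = 6), a log2 fold change of 0.66 with a standard error of 0.06 (edgeR adjusted p = 0.000143). The 95% interval of the fold change ran from 1.44 to 1.74. Rpgrip1l passed the threshold in all 21 alternatives, with log2 fold changes from 0.50 to 0.69, and none of its exons overlap another annotated exon.

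Cc2d2a (ENSMUSG00000039765, chromosome 5 from 43662346 to 43740972, plus strand), which is required for the module to assemble at the transition zone, was the member with the fewest counts. The WT mice had 7.43, 8.14, 13.1, 6.90 and 10.7 CPM and the Rfx2-/- mice had 6.11, 5.95, 5.41, 6.49, 5.52 and 4.61 CPM. The genotypes did not overlap, but WT replicate 4 and Rfx2-/- replicate 9 were only 6.90 and 6.49 CPM. The log2 fold change was -0.70 with a standard error of 0.17 (edgeR adjusted p = 0.0273). WT replicates 3 and 5 were the highest of the group here. The adjusted p rose past 0.05 in edgeR without WT replicate 3 (0.0568) or 5 (0.0632) and without Rfx2-/- replicate 6 (0.0577), 7 (0.0540), 8 (0.0548), 10 (0.0627) or 11 (0.0547).

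B9d1, B9d2 and Mks1 each carry a B9 domain, which is related to lipid-binding domains, and they bind each other. B9d2 (ENSMUSG00000063439, chromosome 7 from 25680780 to 25686558, plus strand) had 12.9, 13.5, 11.3, 14.2 and 13.0 CPM in WT and 9.50, 9.04, 10.3, 9.69, 10.6 and 11.8 CPM in Rfx2-/- mice. The groups overlapped, since Rfx2-/- replicate 11 was above WT replicate 3. The log2 fold change was -0.35 with a standard error of 0.09 (edgeR adjusted p = 0.0326), and the adjusted p passed 0.05 without WT replicate 2 (0.0591) or 5 (0.0713) and without Rfx2-/- replicate 6 (0.0777), 7 (0.0697), 8 (0.0592), 9 (0.0583) or 10 (0.0657).

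Mks1 (ENSMUSG00000034121, chromosome 11 from 87853215 to 87863803, plus strand) had 45.8 ± 6.47 CPM (SD, n = 5) in WT, from 38.4 to 53.1, and 52.8 ± 2.70 CPM (SD, n = 6) in Rfx2-/- mice, from 49.8 to 57.6. The genotypes overlapped, and the log2 fold change of 0.20 did not pass (edgeR adjusted p = 0.109). B9d1 (ENSMUSG00000001039, chromosome 11 from 61505144 to 61512931, plus strand) had the widest spread among WT mice, with 97.8, 84.7, 43.4, 78.9 and 42.7 CPM, a highest to lowest ratio of 2.29. Rfx2-/- mice lay between 56.6 and 81.9 CPM, inside the WT range. The log2 fold change was -0.01 with a 95% interval from -0.49 to 0.47 (edgeR adjusted p = 0.971).

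B9d2 fell relative to Mks1 within a mouse. The B9d2/Mks1 ratio was 0.242, 0.265, 0.280, 0.305 and 0.339 in the WT mice and lay between 0.171 and 0.205 in the Rfx2-/- mice, a log2 difference of -0.57 (exact p = 0.00433, adjusted p = 0.00649). The B9d1/B9d2 and B9d1/Mks1 ratios overlapped between genotypes, with log2 differences of 0.41 (exact p = 0.143, adjusted p = 0.171) and -0.15 (exact p = 0.372, adjusted p = 0.372).

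Over all 10 members, the genotypes did not overlap for 3 members that were higher (Tctn1, Tctn3 and Rpgrip1l) and 2 that were lower (Tmem231 and Cc2d2a) in Rfx2-/- mice. Of all tested genes, 6.50% were higher and 5.20% were lower in Rfx2-/- mice without overlap.

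Levels were compared between members per kilobase of merged exon, as CPM per kb. In WT testis B9d1 was highest, with 82.0 ± 29.6 CPM per kb (SD, n = 5), and did not overlap with the next members. Tmem67, Mks1, Tmem231, Tctn2, Tctn3, B9d2, Rpgrip1l and Tctn1 followed with means from 18.4 to 5.47 CPM per kb, and neighbours in this order overlapped each other. Cc2d2a was lowest, with 1.65 ± 0.464 CPM per kb (SD, n = 5), below every value of Tctn1. In Rfx2-/- testis B9d1 (81.4 ± 11.3 CPM per kb, SD, n = 6) and Cc2d2a (1.01 ± 0.117 CPM per kb, SD, n = 6) were again the highest and lowest. Between them the order was Mks1, Tmem67, Tctn3, Tctn2, Rpgrip1l, Tctn1, Tmem231 and B9d2, and Mks1 did not overlap with Tmem67, nor Tmem231 with B9d2. By mean level Tmem231 had rank 4 in WT and rank 8 in Rfx2-/- mice. Exon lengths and overlaps come from GENCODE M21, while the authors counted on their own merged gene models, and these annotations were not compared. The level of Tctn1 may be a lower estimate, if reads on the end that it shares with Hvcn1 were left out. That of Tmem67 may be too, for the 289 nt that it shares with Rbm12b2. The length of Tctn2 comes from all its transcripts because the annotation gives it no coding type.

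**Figure D4:**
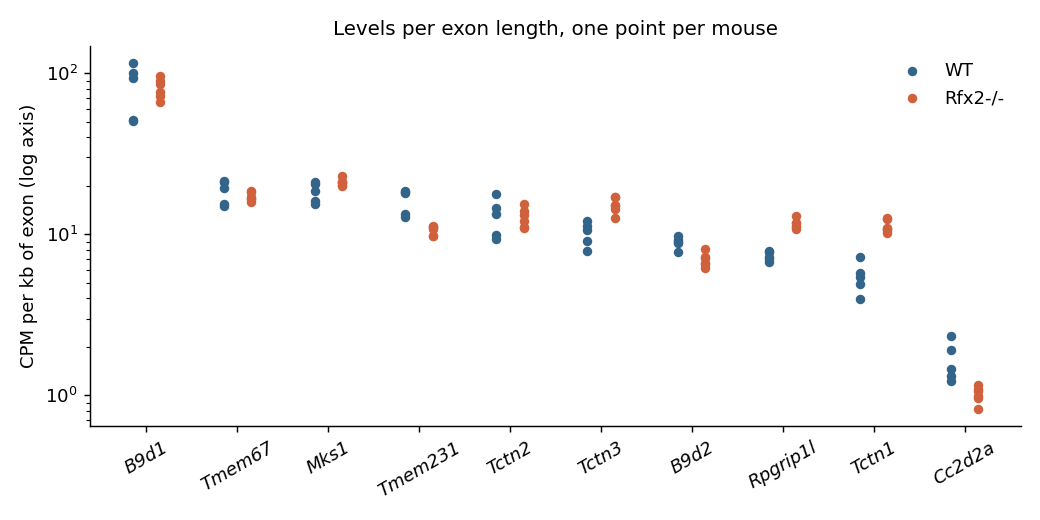
CPM per kb of merged exon (log y axis) is plotted for the 10 members in the order of their WT means, with a point for each of the 5 WT and 6 Rfx2-/- mice. B9d1 lies above all other members and Cc2d2a below them in both genotypes, and the points of Rpgrip1l and Tctn1 move up and those of Tmem231 move down in Rfx2-/- mice.

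Mice of the WT group were not alike in cell type markers. WT replicates 3 and 5 stood apart from the other WT mice in pachytene, Sertoli, peritubular, macrophage and endothelial markers. The mean log2 CPM of 8 pachytene spermatocyte markers was 7.87 in WT replicate 3 and 7.65 in WT replicate 5, between 8.90 and 9.12 in the other WT mice, and between 9.05 and 9.43 in Rfx2-/- mice. The genotypes differed by 0.74 (exact permutation p = 0.00866, adjusted over 10 marker lists p = 0.0866), with summed levels of 3382 to 7737 CPM in WT and 7032 to 9151 CPM in Rfx2-/- mice. By CPM after TMM scaling, WT replicates 3 and 5 were the 2 lowest WT mice for 8 members, the 2 highest for Cc2d2a and neither for B9d2. The TMM factor, which lowers every CPM of a mouse as it grows, was 1.18 in both of these mice. It was 0.963 to 1.02 in the other WT mice and 0.894 to 0.994 in Rfx2-/- mice. The raw Rpgrip1l count of WT replicate 3 was the highest in WT (1793, others 1544 to 1609). The part of this scaling in these places was not tested. These 2 mice also had the highest WT scores (mean log2 CPM) for Sertoli (6.72 and 6.82, others 6.18 to 6.51), peritubular (5.47 and 5.57, others 4.84 to 5.15), macrophage (4.18 and 4.28, others 3.48 to 3.98) and endothelial markers (3.33 and 3.34, others 2.42 to 2.87). By score the same held for spermatogonial markers (5.73 and 5.76, others 5.33 to 5.45) and for leptotene and zygotene markers (5.80 and 5.76, others 5.48 to 5.70). By summed level it did not hold. Spermatogonial sums were lowest in these 2 mice (599 and 598 CPM, others 780 to 872). Leptotene and zygotene sums were 288 and 282 CPM, inside the 261 to 299 CPM of the others. The part of these cell types in the members' values was not tested. For 9 round spermatid markers the summed level lay between 6.601 and 419 CPM in WT and between 34.1 and 731 CPM in Rfx2-/- mice (score difference 2.07, exact permutation p = 0.178, adjusted p = 0.296). In WT replicates 1 to 5 it was 419, 120, 14.1, 18.2 and 6.601 CPM. Elongating spermatid markers summed to 237, 39.0, 4.15, 4.98 and 1.10 CPM in these mice. In both lists WT replicate 4 was thus like replicates 3 and 5. No marker was at 0 in all mice. Of the markers in all 10 lists, 1 was called by edgeR, the Leydig cell gene Hsd3b1 (log2 fold change -0.86, adjusted p = 0.00126).

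No marker list passed 0.05 after adjustment over the 10 lists. The score of Sertoli markers was lower by a log2 difference of -0.30 (exact permutation p = 0.0303), that of macrophage markers by -0.42 (exact permutation p = 0.0476) and that of endothelial markers by -0.37 (exact permutation p = 0.0606), each with an adjusted p of 0.152. Differences were -0.45 for Leydig, -0.16 for spermatogonial, 0.05 for leptotene and zygotene, 0.69 for elongating spermatid and -0.04 for peritubular markers, with adjusted exact permutation p from 0.268 to 0.788.

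The members were therefore also compared without WT replicates 3 and 5, and with the pachytene score as a covariate, 2 alternatives added after seeing the data. Tctn1 had log2 fold changes of 0.88 without these mice (edgeR adjusted p = 0.000978) and 0.74 with the covariate (0.000391). For Rpgrip1l they were 0.61 (edgeR adjusted p = 0.000262) and 0.56 (8.47e-05). The fall of Tmem231 was larger in both, at -0.78 (edgeR adjusted p = 6.90e-05) and -0.87 (1.95e-05). Cc2d2a came to -0.39 (edgeR adjusted p = 0.0706) and -0.31 (0.270), less than its -0.70 over all mice.

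For members that did not differ over all mice, the same alternatives gave lower values. B9d1 had log2 fold changes of -0.33 without the 2 mice (edgeR adjusted p = 0.109) and -0.57 with the pachytene score (0.000128), and Tctn2 had -0.25 (edgeR adjusted p = 0.226) and -0.44 (0.00896). With the covariate 3 members were thus called lower (Tmem231, B9d1 and Tctn2) and 2 higher, where 4.95% of all tested genes were called lower and 0.743% higher. Without the 2 mice 1 member was called lower and 2 higher, where 2.72% of all tested genes were called lower and 1.06% higher. Tmem67 had -0.25 (edgeR adjusted p = 0.0399) and -0.31 (0.0422), B9d2 had -0.40 in both (0.0338 and 0.0425), Tctn3 had 0.43 and 0.30 (0.0240 and 0.0455) and Mks1 had 0.08 and 0.01 (0.476 and 0.943). The covariate itself differs between the genotypes, by the 0.74 given for the marker list.

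Among 13 other transition zone genes, all of them tested, 1 was called lower and 1 higher, where 1.94% of all tested genes were called lower and 0.730% higher. These 13 were listed by their role in the zone, and whether some also belong to the MKS module was not examined. Tmem107, a transmembrane protein of the same zone, fell by 0.73 on the log2 scale, from 28.8 to 49.8 CPM in WT to 22.7 to 24.8 CPM in Rfx2-/- mice (edgeR adjusted p = 0.00742), and Tmem80 rose by 0.56, from 27.0 to 41.0 CPM to 47.6 to 53.2 CPM (edgeR adjusted p = 0.00791). Both calls were lost in edgeR when any 1 of the Rfx2-/- mice was left out. The Tmem107 call was also lost without WT replicate 2 or 4. That of Tmem80 was also lost without WT replicate 2, 3 or 4, and with the pachytene score as covariate. Leaving out 1 mouse took the edgeR adjusted p of Tmem107 up to 0.0225 (without Rfx2-/- replicate 10) and that of Tmem80 up to 0.0223 (without Rfx2-/- replicate 8). At 0.05, 2 were lower and 1 higher, and the median log2 fold change was 0.16. Intraflagellar transport carries cargo along the cilium. Among 24 of its genes, edgeR with TMM over all mice, without a covariate, called 0 lower and 2 higher, beside the same shares at 0.01. At an unadjusted p below 0.05, 2 were lower and 10 higher, where 23.7% of all tested genes were lower and 18.1% higher, and DESeq2 also called 0 lower while voom called 1. Those called higher were Ift74 (log2 fold change 1.10, edgeR adjusted p = 0.00182) and Ift81 (1.01, edgeR adjusted p = 0.00258), which encode partners that bind tubulin. At 0.05, 0 were lower and 3 higher, beside the same shares at 0.05, and the median was 0.23. The lists were compared by these counts only, and no test of a difference between them was made.

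**Figure D5:**
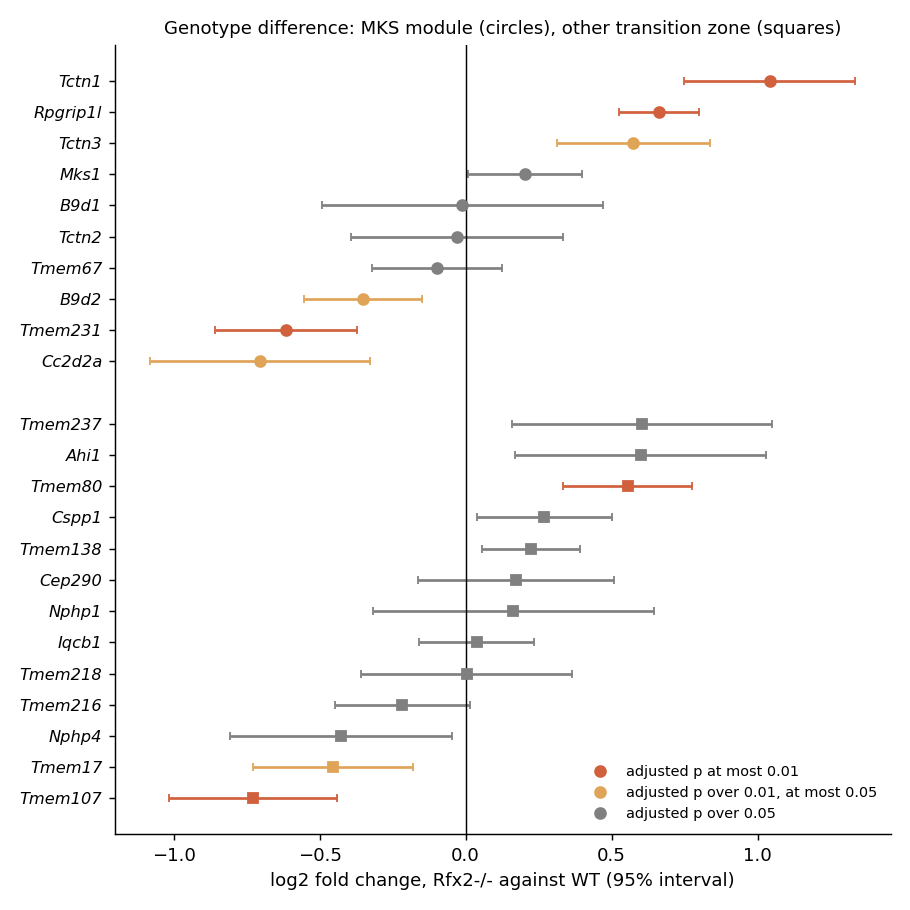
Log2 fold changes of Rfx2-/- against WT with 95% intervals from edgeR (x axis) are drawn for the 10 examined MKS module members (circles) and 13 other transition zone genes (squares), coloured by adjusted p. Both groups hold values on either side of 0, from -0.70 to 1.04 in these members and from -0.73 to 0.60 in the others.

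The 3 members called at 0.01 were each followed by genes with a like profile, by Pearson's r of log2 CPM over the 11 mice. These values are descriptions, and the mice share the genotype difference and the library depths. Tctn1 was most like Oit1 (r = 0.991), Ribc2 (0.991) and Ccdc189 (0.990). Rpgrip1l was most like Ube2o (r = 0.983), Hvcn1 (0.980) and Afap1l1 (0.976). Tmem231 was most like Ccdc40 (r = 0.979), which is needed to assemble the axoneme of motile cilia, Zmynd10 (0.979), which acts in the assembly of dynein arms, and Me3 (0.978), a mitochondrial malic enzyme. The log2 fold changes of these 3 genes were -2.16, -1.45 and -4.22, against -0.62 for Tmem231.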

How the data were processed

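Testis RNA of 11 mice at P21 was analysed. Libraries were made with a TruSeq kit, and according to the authors single reads were mapped to GRCm38, reads mapping to several places were discarded, and reads on merged exons were counted, leaving out reads on exons of different genes. The supplementary methods differ between paragraphs on read length and aligner, and the submitters' processing notes name CASAVA 1.8.2, STAR 2.4 and featureCounts 1.4.6. The deposited values are raw counts of 23074 genes, of which 22293 matched a GENCODE M21 symbol. The authors used DESeq with a p of at most 0.01. Here counts were compared in R 4.3.3 with edgeR 4.0.16 (filterByExpr, TMM, glmQLFit, glmQLFTest, no covariate). Genes were called at any fold change where p, adjusted by Benjamini and Hochberg's method, was at most 0.01. The code was run on simulated counts with the same dispersion for all genes, which does not show how the test performs with the spread of these mice. The members and lists were chosen with earlier results of these data known. All 10 members are named, and of other lists the called genes, and for called members the 3 genes of highest r. Marker scores were mean log2 CPM with a prior count of 2, and ratios were log2 of counts plus 0.5. The floor of 3 counts covers counting error only. Alternatives were DESeq2's size factors, total counts, DESeq2 1.42.0, limma 3.58.1 voom with sample weights, a robust prior, filters of 1 count or a mean of 50 counts, a round spermatid score as covariate, and each mouse left out. 2 more (without WT replicates 3 and 5, or with a pachytene score) were added after seeing the data. RFX2 ChIP-Seq was not analysed here. Python 3.11.15 (pandas 2.3.3, SciPy 1.17.1, matplotlib 3.10.9) was used for summaries, exact tests and plots.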

Additional observations from a re-analysis of the deposited data

How the results depend on the processing

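Directions of 8 of the 10 members held in every alternative, and Tctn1 and Rpgrip1l were called in all of them. Tctn2 and B9d1 had fold changes near 0 and changed sign. When a mouse was left out, Tctn2 had log2 fold changes from -0.12 to 0.11 and B9d1 from -0.13 to 0.14, and B9d1 had 0.0166 with DESeq2 and 0.0168 with its size factors in edgeR. With total counts as library sizes the median over all genes went from -0.05 to -0.22 (log2), and each member's value was lower too. Of all tested genes, 305 were called lower and 115 higher. DESeq2 called 904 lower and 1128 higher, voom 682 and 367, the round spermatid covariate 653 and 193, an adjusted p of 0.05 1382 and 968, and the pachytene covariate 779 lower, and leaving out a mouse gave 184 to 393 lower and 45 to 192 higher. For the members, DESeq2, the threshold of 0.05 and the pachytene covariate each called 3 lower, Tctn3 made 3 members higher with total counts, DESeq2, voom, the round spermatid covariate and the threshold of 0.05, and leaving out a mouse called 0 to 1 lower and 2 to 3 higher. Of the other transition zone genes, voom, the round spermatid covariate, the threshold of 0.05 and the loss of WT replicates 3 and 5 each called 2 lower, the pachytene covariate called 3 lower and 0 higher, and leaving out a mouse called 0 to 1 lower and 0 to 1 higher. In edgeR with TMM, all mice and no covariate, no intraflagellar transport gene was called lower (0 of 24). Total counts, voom and the round spermatid covariate each called 1 lower, the loss of WT replicates 3 and 5 called 2 lower and the pachytene covariate 6 lower. Leaving out a mouse called 0 lower and 2 higher. The paralog ratios kept their direction when a mouse was left out, with log2 differences of 1.01 to 1.14 for Tctn1/Tctn2, 0.45 to 0.52 for Tctn1/Tctn3, -0.65 to -0.52 for Tctn2/Tctn3, 0.26 to 0.56 for B9d1/B9d2, -0.26 to -0.07 for B9d1/Mks1 and -0.62 to -0.50 for B9d2/Mks1. Where a count moved, the cause was not tested. No paired analysis was possible because the labels give neither litters nor another pairing of the mice. Litters are therefore not taken into account in the p-values. With 5 and 6 mice the 95% interval of B9d1 reaches from 0.710-fold to 1.39-fold of WT and that of Tctn2 from 0.762-fold to 1.26-fold.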
